A study of Mus musculus with 24 samples.

Results

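The genes described here encode the machinery that copies DNA: the origin recognition complex, the licensing and loading factors, the MCM helicase, the polymerases, the sliding clamp and its loader, the proteins that mature the lagging strand, and E2F factors that control transcription of many of these genes. They number 53 of the 19938 named genes of the array and were picked by name, through the platform's gene symbols, and the probe set with the highest mean stood for each gene. All 53 passed the filter on dim values and lay among the 15647 genes tested, and none lay at or below the dim level, the 30th percentile of its array, on any array. The series measured messenger RNA of bone marrow on 24 one-colour arrays, 1 per mouse, and the deposited values are log2 signals.

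The groups were leukemic Pax5+/- (n = 10), preleukemic Pax5+/- (n = 7), leukemic WT (n = 4) and preleukemic WT (n = 3). Pax5+/- mice carry 1 functional allele of Pax5, which encodes a transcription factor required for commitment to the B lineage, and WT mice carry both. Every mouse, the WT controls included, had received 2 Gy of ionizing radiation, so no group shows unirradiated cells. Leukemic samples came from marrow that bore tumors, whereas the preleukemic material is described as pro/pre-B cells of marrow, and all samples carry a label of B cells and of 3 weeks after irradiation, so it is not clear when the leukemic mice were sampled. Disease stage and cell material therefore cannot be told apart. The labels give neither strain, age nor sex. The design sets leukemic against preleukemic samples within each genotype, and the genotype comparisons and the difference between the stage differences follow from it. Replicates are separate mice, per the labels and the design text, so the tests measure the spread between mice, pooled over the 4 groups.

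Replication starts at origins, where the origin recognition complex, Cdc6 and Cdt1 load the MCM helicase as an inactive double ring while geminin restrains a further loading. The kinases Cdc7-Dbf4 and Cdk2-cyclin then help to recruit Cdc45 and GINS, which turn MCM into the active helicase, and polymerase alpha-primase, delta and epsilon copy the strands. E2F factors, held in check by the retinoblastoma protein, switch many of these genes on as cells enter S phase, and large pre-B cells divide rapidly in normal marrow.

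Promoters were examined for the E2F motif, since many of these genes are known E2F targets and moved together in the data below. The RefSeq promoter table of GRCm38.p6, which holds 250 bases before to 50 bases after each start, contained 44 of the 53 genes in 54 windows. Gins1, Gins2, Gins4, Mcm4, Prim2, Pole, Rfc2, Ccne2 and Gmnn were not matched. The motif was counted as the letters TTCCCGC, as TTGGCGC, as TTCGCGC or as TTGCCGC on either strand, and each of several overlapping matches was counted. It occurred in 32 of the 54 windows (59.3%), against 3145 of the 32851 windows counted (9.57%). The windows of a further chromosome of the table were left out of every count over all windows or genes. By gene, 29 of the 44 (65.9%) had a match in any window, against 10.9% of the 27025 genes counted. The share was 61.3% (19 of 31) among genes that were higher in leukemic arrays of both genotypes and 76.9% (10 of 13) among the others. The shorter CCAAT box, counted on either strand, was in 53.7% of the list's windows and in 37.4% of all windows. Of the 54 E2F matches, 38 lay within 60 bases of the start, and the same share over all windows was not counted. A Cdc7 site that lay in overlapping windows was counted in each of them.

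The windows below show 3 genes that were higher in leukemic arrays of both genotypes and have a match, Dna2, which was higher in both and has none, E2f2, which was lower in both and has a match, and Pcna, which has none. They are read 5′ to 3′ on the gene's strand, with capitals for E2F motif matches.

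Mcm6, chr1:128359656-128359955, minus strand: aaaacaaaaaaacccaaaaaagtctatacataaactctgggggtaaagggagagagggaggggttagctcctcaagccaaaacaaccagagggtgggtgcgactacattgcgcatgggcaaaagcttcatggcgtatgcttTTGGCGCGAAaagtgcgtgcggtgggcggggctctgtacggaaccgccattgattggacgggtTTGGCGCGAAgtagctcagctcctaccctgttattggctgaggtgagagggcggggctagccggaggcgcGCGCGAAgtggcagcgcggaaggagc

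Pole2, chr12:69228141-69228440, minus strand: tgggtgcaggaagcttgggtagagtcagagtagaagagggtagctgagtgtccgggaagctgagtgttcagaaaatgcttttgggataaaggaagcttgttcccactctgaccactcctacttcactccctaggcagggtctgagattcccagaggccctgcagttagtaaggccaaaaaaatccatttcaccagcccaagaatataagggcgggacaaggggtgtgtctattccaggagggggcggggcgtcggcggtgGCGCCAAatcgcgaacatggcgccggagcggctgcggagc

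Cdc7, chr5:106964311-106964610, plus strand: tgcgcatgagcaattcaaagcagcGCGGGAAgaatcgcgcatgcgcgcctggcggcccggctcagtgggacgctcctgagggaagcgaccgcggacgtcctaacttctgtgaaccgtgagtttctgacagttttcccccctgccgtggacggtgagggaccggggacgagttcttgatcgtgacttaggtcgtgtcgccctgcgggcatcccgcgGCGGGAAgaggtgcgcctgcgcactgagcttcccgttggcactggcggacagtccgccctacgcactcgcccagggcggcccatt

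Dna2, chr10:62946779-62947078, plus strand: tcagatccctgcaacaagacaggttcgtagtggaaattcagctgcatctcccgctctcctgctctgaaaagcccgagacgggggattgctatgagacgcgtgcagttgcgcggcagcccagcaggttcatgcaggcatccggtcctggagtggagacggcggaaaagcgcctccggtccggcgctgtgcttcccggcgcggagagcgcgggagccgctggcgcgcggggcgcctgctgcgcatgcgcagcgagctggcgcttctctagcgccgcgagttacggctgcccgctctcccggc

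E2f2, chr4:136172024-136172323, plus strand: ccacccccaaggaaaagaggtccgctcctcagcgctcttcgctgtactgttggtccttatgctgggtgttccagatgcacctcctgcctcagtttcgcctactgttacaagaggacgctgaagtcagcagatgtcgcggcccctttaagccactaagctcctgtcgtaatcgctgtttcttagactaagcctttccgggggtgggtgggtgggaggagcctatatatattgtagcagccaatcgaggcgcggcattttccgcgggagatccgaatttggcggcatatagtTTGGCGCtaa

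Pcna, chr2:132253131-132253430, minus strand: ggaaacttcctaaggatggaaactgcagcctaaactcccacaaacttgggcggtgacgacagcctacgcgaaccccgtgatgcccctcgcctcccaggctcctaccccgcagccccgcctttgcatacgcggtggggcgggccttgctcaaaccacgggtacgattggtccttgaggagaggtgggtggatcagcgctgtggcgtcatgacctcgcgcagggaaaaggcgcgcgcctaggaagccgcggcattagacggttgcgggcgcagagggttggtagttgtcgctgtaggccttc

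The window of Mcm6 held 5 matches, the highest number of the list, and each run TTGGCGCGAA holds an overlapping pair, TTGGCGC and the reverse complement of TTCGCGC. In the Pole2 window the single match lay after the start, as did the match of E2f2. A match describes letters in a window and does not show binding.

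Several facts of the series touch the values below. Array medians over all probe sets were 6.104 to 6.219 in leukemic arrays, against 6.226 to 6.296 in preleukemic arrays, so they went with stage. The B-lineage list, of which 9 of 10 markers were measured, averaged 10.05 to 11.40 in leukemic Pax5+/- arrays, against 11.58 to 11.88 in preleukemic Pax5+/- arrays, and 9.25 to 10.93 in leukemic WT arrays, against 11.75 to 11.99 in preleukemic WT arrays. Every array thus had B-lineage means far above its own median, while 6 of the 9 fell in leukemic Pax5+/- arrays and 5 of the 9 in leukemic WT arrays. Many markers of other cells were higher in leukemic arrays: 6 of 6 megakaryocyte and platelet markers rose in both genotypes, as did 7 of 9 stromal and endothelial markers while 1 of those 9, Pecam1, fell in both, and monocyte and macrophage markers rose in 7 of 9 and 5 of 9 cases in Pax5+/- and WT, and granulocyte markers in 10 of 12 and 0 of 12. Of the erythroid markers, 1 of 6 fell in leukemic Pax5+/- arrays and 2 of 6 rose in leukemic WT arrays, and of the T and NK markers 1 of 9 rose in leukemic Pax5+/- arrays and 0 of 9 in leukemic WT arrays. Beside these counts, 27.8% of all genes tested rose and 35.1% fell in leukemic Pax5+/- arrays, and 18.7% and 20.4% in leukemic WT arrays. Preleukemic WT array 1 stood apart from its group, with a granulocyte mean of 10.63, against 6.53 and 6.59 on the group's other arrays. Leukemic WT arrays had granulocyte means of 8.21 to 10.33, and the median WT difference of the 12 markers was 1.45, with none called. For the WT stage, preleukemic genotype and interaction comparisons, the list's counts and medians are given with and without preleukemic WT array 1. Other WT values, those of single genes and marker lists, mostly include it. The Y-linked genes were low on all 4 leukemic WT arrays and high on all 3 preleukemic WT arrays, so in WT mice the stage comparison cannot be told apart from one of sex. Each Pax5+/- group held arrays of both kinds, so the genotype comparisons and the interaction were unbalanced in these genes too. Their median log2 differences were -1.22 between genotypes in preleukemic mice, 1.79 in leukemic mice and 3.01 in the interaction.

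Genes of DNA replication were mostly higher in leukemic arrays than in preleukemic arrays, in both genotypes. In Pax5+/- mice 37 of the 53 rose, 3 fell (E2f2, Orc4 and Pcna) and 13 did not pass the test, with limma and Benjamini-Hochberg adjustment over all genes tested. Over all genes 27.8% rose and 35.1% fell in that comparison, and the median log2 difference was 0.52 over the list, against -0.05 over all genes. In WT mice 44 of the 53 rose, 1 fell (E2f2) and 8 did not pass, beside 18.7% and 20.4% of all genes, and the medians were 0.83 for the list and -0.05 for all genes. These shares moved with the scaling of the arrays. Centred on their medians, 5066 of all genes rose and 3502 fell in leukemic Pax5+/- arrays, against 4354 and 5485 as deposited, and 3379 rose and 2177 fell in leukemic WT arrays, against 2924 and 3191. Centred on the tested genes, which moved the median of all genes to -0.25 and -0.18, 18.1% of all genes rose and 57.1% fell in Pax5+/- mice (2827 and 8930) and 14.1% and 36.7% in WT mice (2214 and 5741), and with quantile normalization repeated 4752 and 4005 in Pax5+/- mice. The list's own split moved as well. In Pax5+/- mice it was 39 higher and 2 lower, 30 and 6, and 37 and 3 under these 3 scalings. In WT mice it was 45 and 1, 41 and 2, and 44 and 2. The groups did not overlap for 11 genes that were higher and 1 that was lower in leukemic Pax5+/- arrays (11.7% and 10.5% of all genes), and for 38 higher and 1 lower in leukemic WT arrays (18.9% and 20.4% of all genes). These are bulk samples, in which more cells of a dividing type and more RNA per cell cannot be told apart. The changes in the marker lists and in the cell material moved with stage too, and their part in these differences was not tested.

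**Figure D1:**
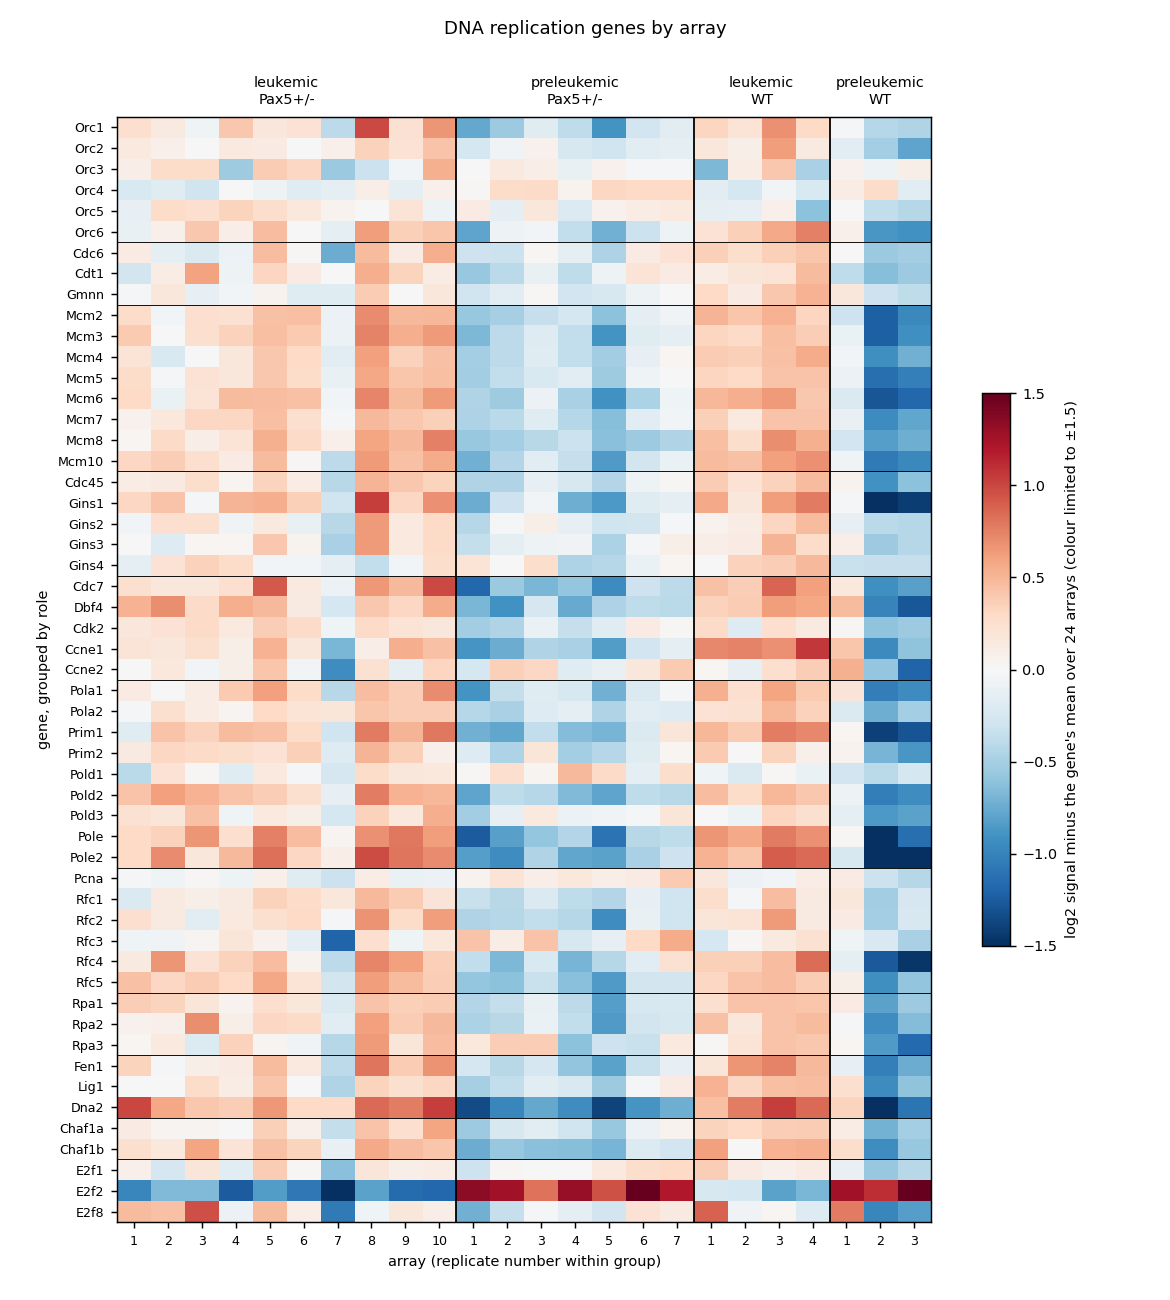
Each row is 1 of the 53 genes, grouped by role from origin recognition at the top to E2F factors at the bottom, and each column is 1 array, by group. Colour gives the log2 signal minus that gene's mean over the 24 arrays, red for above and blue for below, limited to ±1.5; most rows are red in leukemic and blue in preleukemic arrays, E2f2 runs the other way, leukemic Pax5+/- array 7 is paler than its group, and preleukemic WT array 1 is far redder than arrays 2 and 3 of its group.

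All 37 genes that rose in Pax5+/- mice also rose in WT mice, and the mice of these comparisons differ, although they share the estimate of the spread. A further 7 passed in WT and not in Pax5+/- mice (Cdc6, Gmnn, Gins3, Gins4, Pold3, Rpa3 and E2f1), and 6 passed in neither (Orc3, Orc5, Ccne2, Pold1, Rfc3 and E2f8). Passing in 1 genotype does not show a difference between genotypes, and the test of that difference is given further on. Across the 53 genes the log2 stage differences in Pax5+/- and in WT mice had a Pearson correlation of 0.90 and a Spearman correlation of 0.81, and 0.82 and 0.80 without E2f2. This is a correlation across genes that share arrays, and genes are not independent replicates. The signed stage difference was higher in WT than in Pax5+/- mice for 46 of the 53, among them E2f2 and Orc4, which were below 0 in both. Over all genes, 52.4% had the higher value in Pax5+/- mice.

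**Figure D2:**
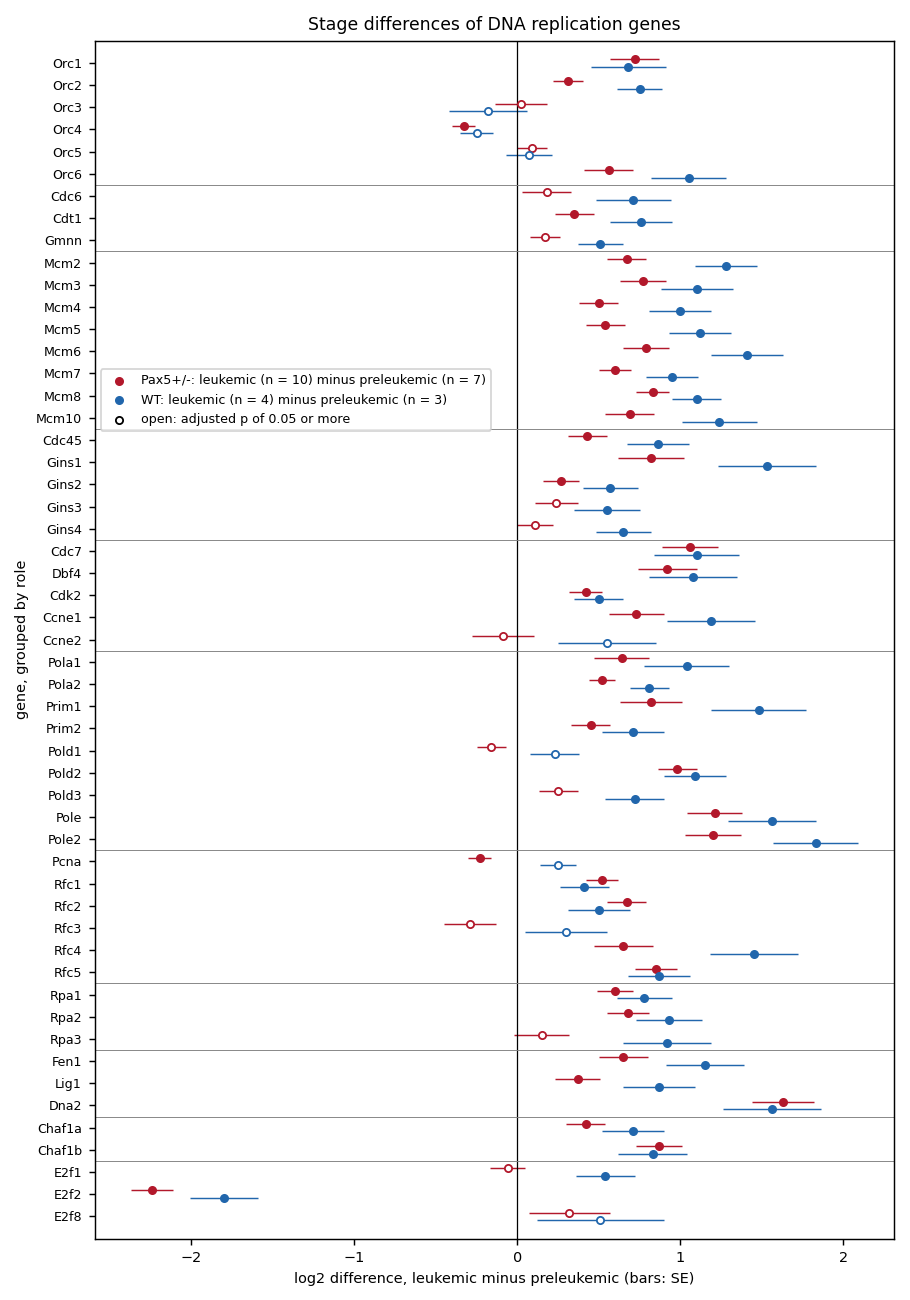
Log2 differences, leukemic minus preleukemic, of each gene in Pax5+/- mice (red, 10 and 7 arrays) and WT mice (blue, 4 and 3 arrays), with bars of 1 SE and open circles where limma's adjusted p was 0.05 or more. All 8 genes of the MCM group lie right of 0 in both genotypes, and E2f2 lies far to the left, at -2.24 and -1.80.

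At the origin recognition complex, which marks origins, 3 of 6 subunits rose in each genotype, Orc1, Orc2 and Orc6. Orc1, the largest subunit, had a log2 difference of 0.72 in Pax5+/- and 0.68 in WT mice, Orc2 of 0.31 and 0.75, and Orc6 of 0.56 and 1.05. Orc3 and Orc5, also core subunits, did not pass the test in either genotype, with differences of 0.02 and 0.09 in Pax5+/- mice and -0.18 and 0.07 in WT mice. Orc4, a further core subunit, ran from 8.05 to 8.45 with a median of 8.20 in leukemic Pax5+/- arrays, against 8.37 to 8.66 with a median of 8.64 in preleukemic Pax5+/- arrays. The ranges overlapped in part, with 2 leukemic arrays above the lowest preleukemic array. Orc4 fell in Pax5+/- mice (log2 difference -0.33, SE 0.07, limma adjusted p = 0.000243). In WT mice Orc4 was at 8.19, 8.08, 8.31 and 8.12 in leukemic arrays, against 8.46, 8.62 and 8.18 in preleukemic arrays, and the difference of -0.25 did not pass (adjusted p = 0.0659). It did pass in WT mice with quantile normalization repeated (-0.25, adjusted p = 0.0407), centred on the tested genes (-0.37, adjusted p = 0.00802), without leukemic WT array 3 (-0.29, adjusted p = 0.0481) and without preleukemic WT array 3 (-0.37, adjusted p = 0.0155).

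Among the licensing factors, Cdt1, which brings MCM to the origin, rose in both genotypes. Cdt1 ran from 8.48 to 9.37 with a median of 8.88 in leukemic Pax5+/- arrays, against 8.19 to 8.97 with a median of 8.65 in preleukemic Pax5+/- arrays, and these ranges overlapped widely. In WT mice Cdt1 was at 8.87, 8.94, 8.97 and 9.24 in leukemic arrays, against 8.38, 8.12 and 8.22 in preleukemic arrays, without overlap. The log2 difference was 0.35 (SE 0.12, adjusted p = 0.0152) in Pax5+/- mice and 0.76 (SE 0.19, adjusted p = 0.00286) in WT mice by limma. With arrays centred on the tested genes, the Pax5+/- difference of Cdt1 was 0.16 (adjusted p = 0.238). Cdc6, the loader that acts with Cdt1, had differences of 0.18 (adjusted p = 0.298) and 0.71 (adjusted p = 0.0185) in Pax5+/- and WT mice. Gmnn, which encodes geminin, the inhibitor of Cdt1, had 0.17 (adjusted p = 0.0949) and 0.51 (adjusted p = 0.00508). In Pax5+/- mice Gmnn passed with arrays centred on their medians (0.24, adjusted p = 0.0372) and with quantile normalization repeated (0.25, adjusted p = 0.0264), and centred on the tested genes it was at -0.03 and Cdc6 at -0.02.

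In the MCM group 8 of 8 genes rose in both genotypes. Mcm2 to Mcm7 encode the subunits of the helicase ring, Mcm10 a factor that helps to activate it, and Mcm8 a relative that acts with Mcm9 in recombination repair. In Pax5+/- mice the log2 differences of the 6 ring subunits ran from 0.50 (Mcm4) to 0.79 (Mcm6), and in WT mice from 0.95 (Mcm7) to 1.41 (Mcm6). For Mcm6, leukemic Pax5+/- arrays averaged 10.68 ± 0.27 (SD, n = 10) and preleukemic Pax5+/- arrays 9.89 ± 0.29 (SD, n = 7), and leukemic WT arrays averaged 10.84 ± 0.10 (SD, n = 4) and preleukemic WT arrays 9.43 ± 0.58 (SD, n = 3). Mcm10 had differences of 0.69 in Pax5+/- and 1.24 in WT mice. Mcm8 had the smallest p of the group in both genotypes. It ran from 7.03 to 7.75 with a median of 7.29 in leukemic Pax5+/- arrays, against 6.37 to 6.68 with a median of 6.49 in preleukemic Pax5+/- arrays. In WT mice Mcm8 was at 7.45, 7.26, 7.70 and 7.53 in leukemic arrays, against 6.71, 6.17 and 6.27 in preleukemic arrays. Neither pair of groups overlapped, and Mcm8 was 1.77-fold higher in Pax5+/- mice (log2 difference 0.83, SE 0.10, limma adjusted p = 3.8e-07) and 2.15-fold higher in WT mice (1.10, SE 0.15, adjusted p = 1.06e-05). Mcm9, the partner of Mcm8, is outside the list and had differences of -0.09 (adjusted p = 0.459) and -0.21 (adjusted p = 0.304).

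Cdc45 and the 4 GINS subunits complete the active helicase, and 3 of these 5 genes rose in Pax5+/- mice and 5 of 5 in WT mice. Gins1 ran from 7.71 to 9.04 with a median of 8.39 in leukemic Pax5+/- arrays, against 7.14 to 7.96 with a median of 7.69 in preleukemic Pax5+/- arrays. In WT mice Gins1 was at 8.57, 8.18, 8.63 and 8.78 in leukemic arrays, against 7.98, 6.46 and 6.58 in preleukemic arrays. The Pax5+/- ranges overlapped because leukemic array 7 lay low, and the WT ranges did not overlap. Gins1 rose 1.76-fold in Pax5+/- mice (log2 difference 0.82, SE 0.20, limma adjusted p = 0.00115) and 2.89-fold in WT mice (1.53, SE 0.30, adjusted p = 0.000449). Cdc45 had smaller differences of 0.43 in Pax5+/- and 0.86 in WT mice, and Gins2 of 0.27 and 0.57, all of which passed. Gins3 and Gins4 did not pass in Pax5+/- mice (0.24, adjusted p = 0.108, and 0.11, adjusted p = 0.413) and rose in WT mice by 0.55 and 0.65. Without leukemic Pax5+/- array 7, Gins3 passed in Pax5+/- mice (0.30, adjusted p = 0.029).

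Both subunits of the kinase that fires origins rose, and 4 of the 5 genes of kinases and S-phase cyclins did so in each genotype. Cdc7, its catalytic subunit, ran from 7.15 to 8.23 with a median of 7.48 in leukemic Pax5+/- arrays, against 6.06 to 6.93 with a median of 6.65 in preleukemic Pax5+/- arrays. In WT mice Cdc7 was at 7.68, 7.60, 8.11 and 7.85 in leukemic arrays, against 7.39, 6.31 and 6.42 in preleukemic arrays. No leukemic array lay below a preleukemic one in either genotype, although preleukemic WT array 1 came close. Cdc7 was 2.08-fold higher in leukemic Pax5+/- mice (log2 difference 1.06, SE 0.17, limma adjusted p = 1.56e-05) and 2.15-fold higher in leukemic WT mice (1.10, SE 0.26, adjusted p = 0.00211). Dbf4, its activating subunit, had differences of 0.92 and 1.08, and Cdk2, the S-phase kinase, of 0.42 and 0.50. The cyclins that activate Cdk2 parted: Ccne1 had differences of 0.73 (adjusted p = 0.00102) and 1.19 (adjusted p = 0.00132) in Pax5+/- and WT mice, and Ccne2 of -0.09 (adjusted p = 0.704) and 0.55 (adjusted p = 0.15). The difference between Ccne1 and Ccne2 was not tested.

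Pole and Pole2 were among the 3 largest rises of the list in both genotypes. They encode the catalytic subunit and the second subunit of polymerase epsilon, which copies the leading strand. Pole ran from 9.19 to 9.94 with a median of 9.70 in leukemic Pax5+/- arrays, against 7.90 to 8.77 with a median of 8.57 in preleukemic Pax5+/- arrays. In WT mice Pole was at 9.81, 9.72, 9.93 and 9.84 in leukemic arrays, against 9.17, 7.60 and 8.02 in preleukemic arrays. All leukemic arrays of both genotypes lay above all preleukemic arrays of their genotype. Pole rose 2.31-fold in Pax5+/- mice (log2 difference 1.21, SE 0.17, limma adjusted p = 3.6e-06) and 2.95-fold in WT mice (1.56, SE 0.27, adjusted p = 9.91e-05).

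Pole2 ran from 7.80 to 8.67 with a median of 8.29 in leukemic Pax5+/- arrays, against 6.76 to 7.38 with a median of 6.92 in preleukemic Pax5+/- arrays. In WT mice Pole2 was at 8.22, 8.11, 8.60 and 8.55 in leukemic arrays, against 7.46, 6.03 and 6.13 in preleukemic arrays. These groups did not overlap either, and the WT difference was the largest rise of the list in that genotype. Pole2 was 2.29-fold higher in leukemic Pax5+/- mice (log2 difference 1.20, SE 0.17, limma adjusted p = 3.5e-06) and 3.54-fold higher in leukemic WT mice (1.83, SE 0.26, adjusted p = 1.59e-05). The small histone-fold partners of the enzyme, Pole3 and Pole4, are outside the list and did not pass in either genotype, with differences of 0.13 and -0.17 in Pax5+/- mice and 0.57 and 0.33 in WT mice.

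Of the 3 listed subunits of polymerase delta, the lagging-strand enzyme, 1 rose in Pax5+/- and 2 rose in WT mice. Pold2, its second subunit, ran from 9.39 to 10.28 with a median of 9.98 in leukemic Pax5+/- arrays, against 8.72 to 9.14 with a median of 9.09 in preleukemic Pax5+/- arrays. In WT mice Pold2 was at 9.98, 9.79, 10.01 and 9.92 in leukemic arrays, against 9.44, 8.48 and 8.59 in preleukemic arrays. The groups were apart in both genotypes, and Pold2 rose 1.97-fold in Pax5+/- mice (log2 difference 0.98, SE 0.12, limma adjusted p = 5.93e-07) and 2.12-fold in WT mice (1.09, SE 0.19, adjusted p = 0.000122). Pold1, the catalytic subunit, was at 8.77 to 9.45 with a median of 9.25 in leukemic Pax5+/- arrays, against 9.03 to 9.66 with a median of 9.43 in preleukemic Pax5+/- arrays. For WT mice Pold1 read 9.11, 8.96, 9.20 and 9.08 in leukemic arrays, against 8.89, 8.77 and 8.91 in preleukemic arrays. Its stage differences of -0.16 (adjusted p = 0.145) and 0.23 (adjusted p = 0.216) passed in neither genotype. Centred on the tested genes, the Pax5+/- difference of Pold1 was -0.36 and passed (adjusted p = 0.00245). Pold3 had 0.25 (adjusted p = 0.0675) in Pax5+/- mice and rose by 0.72 (adjusted p = 0.00388) in WT mice. The Pax5+/- difference of Pold3 lay near the threshold and passed with arrays centred on their medians (0.32, adjusted p = 0.0297), with array weights (0.25, adjusted p = 0.0491), without leukemic arrays 7 and 8 (0.29, adjusted p = 0.0391), and without leukemic array 4 or 7 or preleukemic array 3 or 7 alone (adjusted p = 0.0496, 0.0241, 0.0498 and 0.0456). Pold4, the smallest subunit and outside the list, fell in both genotypes (-0.87, adjusted p = 1.51e-05, and -1.17, adjusted p = 0.000217).

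Polymerase alpha and primase, which lay down primers, rose in all 4 subunits in both genotypes. Pola1 had log2 differences of 0.64 in Pax5+/- and 1.04 in WT mice, Pola2 of 0.52 and 0.81, Prim1 of 0.82 and 1.48, and Prim2 of 0.45 and 0.71. Of the 9 genes of the polymerase and primase group, 7 rose in Pax5+/- mice and 8 in WT mice.

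**Figure D3:**
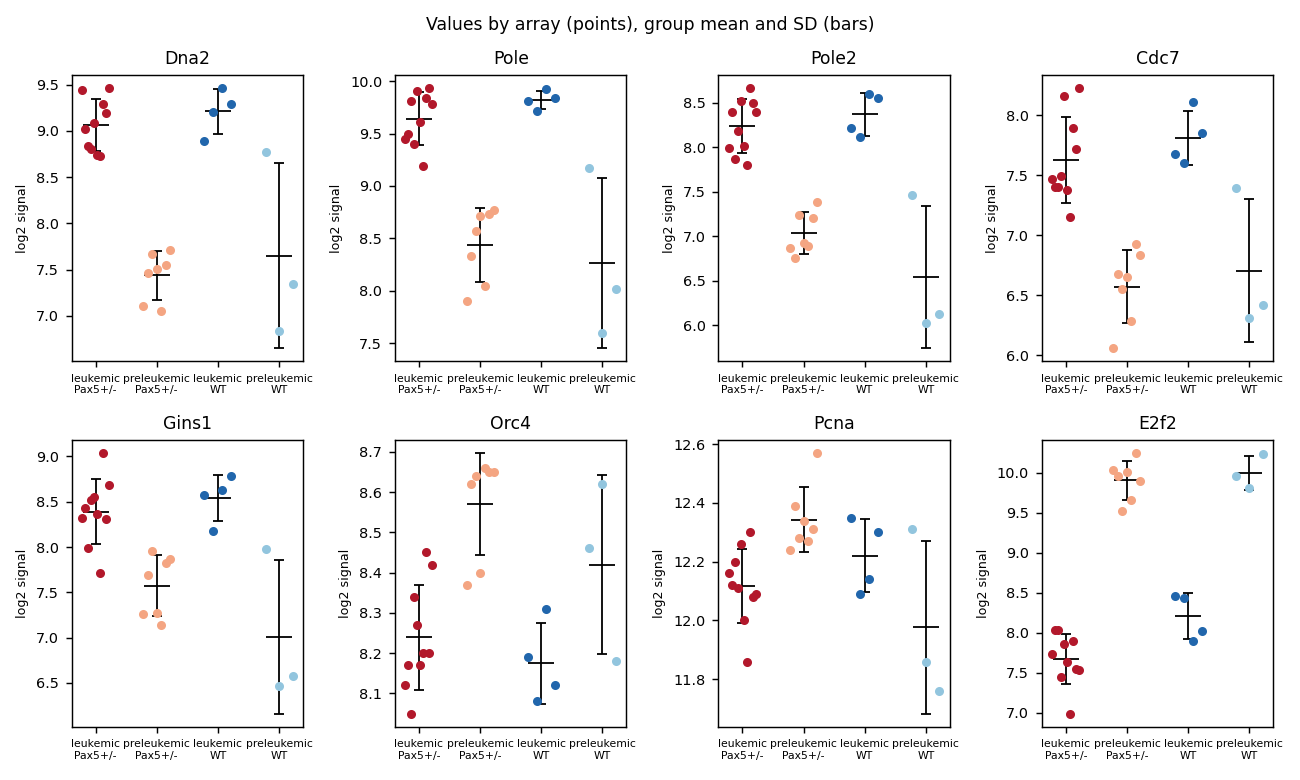
Log2 signal by array for 8 genes, with points for arrays and bars for the group mean and SD, in the groups leukemic Pax5+/- (n = 10), preleukemic Pax5+/- (n = 7), leukemic WT (n = 4) and preleukemic WT (n = 3); each panel has its own scale, which does not start at 0. Dna2, Pole, Pole2 and Cdc7 are higher in every leukemic array than in any preleukemic array of their genotype, E2f2 is lower in every one, and preleukemic WT array 1 is the high point of its group for Dna2, Pole, Pole2, Cdc7, Gins1 and Pcna.

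Pcna, the sliding clamp that holds polymerases on DNA, was 1 of the 3 genes that fell in Pax5+/- mice. Pcna ran from 11.86 to 12.30 with a median of 12.12 in leukemic Pax5+/- arrays, against 12.24 to 12.57 with a median of 12.31 in preleukemic Pax5+/- arrays. In WT mice Pcna was at 12.35, 12.09, 12.14 and 12.30 in leukemic arrays, against 12.31, 11.86 and 11.76 in preleukemic arrays. Both pairs of ranges overlapped. Pcna fell 1.17-fold in Pax5+/- mice (log2 difference -0.23, SE 0.07, limma adjusted p = 0.0096), and its WT difference of 0.25 (SE 0.11, adjusted p = 0.085) did not pass. With arrays centred on their medians the Pax5+/- difference was -0.16 (adjusted p = 0.0849), and the WT difference of 0.32 passed (adjusted p = 0.0414). Without preleukemic WT array 1 the WT difference was 0.41 (adjusted p = 0.0034). A further probe set of Pcna gave nearly the same values, with differences of -0.22 and 0.25, and whether the probe sets respond to a near-identical copy of the gene was not tested.

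The clamp loader, replication factor C, places the clamp on DNA, and 4 of its 5 subunits rose in both genotypes. Rfc5 ran from 9.55 to 10.45 with a median of 10.19 in leukemic Pax5+/- arrays, against 8.97 to 9.55 with a median of 9.24 in preleukemic Pax5+/- arrays. In WT mice Rfc5 was at 10.13, 10.25, 10.29 and 10.21 in leukemic arrays, against 9.91, 8.90 and 9.23 in preleukemic arrays. The lowest leukemic Pax5+/- array, array 7, reached only the level of the highest preleukemic ones. Rfc5 was 1.80-fold higher in leukemic Pax5+/- mice (log2 difference 0.85, SE 0.13, limma adjusted p = 5.76e-06) and 1.83-fold higher in leukemic WT mice (0.87, SE 0.19, adjusted p = 0.00124). Rfc1, Rfc2 and Rfc4 had differences of 0.52, 0.67 and 0.65 in Pax5+/- mice and 0.41, 0.50 and 1.45 in WT mice. Rfc3 did not pass in either genotype, with -0.29 (adjusted p = 0.114) and 0.30 (adjusted p = 0.347). Centred on the tested genes, the Rfc3 difference in Pax5+/- mice was -0.49 (adjusted p = 0.00862).

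Replication protein A coats single-stranded DNA, and Rpa1 is its largest subunit. Rpa1 ran from 8.67 to 9.31 with a median of 9.17 in leukemic Pax5+/- arrays, against 8.06 to 8.77 with a median of 8.53 in preleukemic Pax5+/- arrays. In WT mice Rpa1 was at 9.12, 9.31, 9.31 and 9.30 in leukemic arrays, against 9.00, 8.08 and 8.34 in preleukemic arrays. There was a slight overlap in Pax5+/- mice and none in WT mice. The log2 difference of Rpa1 was 0.60 (SE 0.11, limma adjusted p = 9.97e-05) in Pax5+/- and 0.78 (SE 0.17, adjusted p = 0.00123) in WT mice. Rpa2, the middle subunit, had 0.68 and 0.93. Rpa3, the smallest, had 0.15 (adjusted p = 0.447) and 0.92 (adjusted p = 0.00925), and a further probe set of Rpa3 gave -0.01 and 0.44.

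On the lagging strand Okazaki fragments are trimmed by Dna2 and Fen1, both nucleases, and sealed by the ligase Lig1, and all 3 genes rose in both genotypes. Dna2 had the largest rise of the list in Pax5+/- mice. Dna2 ran from 8.73 to 9.47 with a median of 9.06 in leukemic Pax5+/- arrays, against 7.05 to 7.71 with a median of 7.51 in preleukemic Pax5+/- arrays. In WT mice Dna2 was at 8.89, 9.21, 9.47 and 9.29 in leukemic arrays, against 8.77, 6.84 and 7.34 in preleukemic arrays. The Pax5+/- groups lay far apart, while in WT mice preleukemic array 1 was nearly level with the lowest leukemic array. Dna2 rose 3.09-fold in Pax5+/- mice (log2 difference 1.63, SE 0.19, limma adjusted p = 2.45e-07) and 2.95-fold in WT mice (1.56, SE 0.30, adjusted p = 0.000283). The WT SE uses the pooled spread, while the SD of Dna2 was 1.0 in preleukemic WT arrays and 0.24 to 0.28 in the other groups. Fen1 had differences of 0.65 and 1.15, and Lig1 of 0.37 and 0.87.

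Chromatin assembly factor 1 deposits histones behind the fork, and both of its listed subunits rose. Chaf1b ran from 8.26 to 8.96 with a median of 8.75 in leukemic Pax5+/- arrays, against 7.63 to 8.17 with a median of 7.75 in preleukemic Pax5+/- arrays. In WT mice Chaf1b was at 8.99, 8.38, 8.89 and 8.92 in leukemic arrays, against 8.64, 7.44 and 7.80 in preleukemic arrays. The stages did not overlap in Pax5+/- mice and did in WT mice, where leukemic array 2 lay below preleukemic array 1. Chaf1b had a log2 difference of 0.87 (SE 0.14, limma adjusted p = 1.32e-05) in Pax5+/- and 0.83 (SE 0.21, adjusted p = 0.00359) in WT mice. The WT call ended when only the WT arrays were fitted (0.83, adjusted p = 0.0645) and without preleukemic WT array 2 (0.57, adjusted p = 0.0512). Chaf1a, the large subunit, had differences of 0.42 and 0.71.

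E2f2, which encodes an E2F factor of the activating class, fell in both genotypes, and in Pax5+/- mice its change was the largest of the list. E2f2 ran from 6.99 to 8.04 with a median of 7.68 in leukemic Pax5+/- arrays, against 9.52 to 10.25 with a median of 9.96 in preleukemic Pax5+/- arrays. In WT mice E2f2 was at 8.46, 8.44, 7.90 and 8.02 in leukemic arrays, against 9.96, 9.81 and 10.23 in preleukemic arrays. Every leukemic array of either genotype lay below every preleukemic array, and preleukemic WT array 1, which was high for most genes of the list, was not apart for E2f2. E2f2 was 4.71-fold lower in leukemic Pax5+/- mice (log2 difference -2.24, SE 0.13, limma adjusted p = 8.31e-12) and 3.47-fold lower in leukemic WT mice (-1.80, SE 0.21, adjusted p = 1.07e-06). Of the listed E2F genes, E2f2 was the only one called in both genotypes. E2f8, a repressor of the family, did not pass in either, with differences of 0.32 (adjusted p = 0.275) and 0.51 (adjusted p = 0.302).

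E2f1, a further activator, ran from 7.76 to 8.77 with a median of 8.48 in leukemic Pax5+/- arrays, against 8.08 to 8.69 with a median of 8.41 in preleukemic Pax5+/- arrays. In WT mice E2f1 was at 8.76, 8.51, 8.47 and 8.51 in leukemic arrays, against 8.28, 7.82 and 7.98 in preleukemic arrays. The preleukemic Pax5+/- range lay inside the leukemic one, and the WT ranges did not overlap. E2f1 had a log2 difference of -0.06 (SE 0.11, limma adjusted p = 0.629) in Pax5+/- and 0.54 (SE 0.18, adjusted p = 0.0197) in WT mice. The WT call ended with the Y-linked class as a covariate (0.33, adjusted p = 0.202) and without leukemic array 1, preleukemic array 2 or preleukemic array 3 (adjusted p = 0.0549, 0.11 and 0.0669). Centred on the tested genes, the Pax5+/- difference was -0.26 (adjusted p = 0.0315).

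Genes of replication outside the list were counted alongside, from a list chosen with earlier results of these data known. Of 49 tested, 26 rose and 5 fell in Pax5+/- mice (Pold4, Top1, Asf1a, Tfdp2 and Rb1), and 27 rose and 4 fell in WT mice (Pold4, Asf1a, Tfdp2 and Rb1). Their median log2 differences were 0.31 and 0.54. Of all genes, 27.8% rose and 35.1% fell in Pax5+/- mice, and 18.7% and 20.4% in WT mice. Rb1, the retinoblastoma protein that restrains E2F activators, ran from 8.51 to 9.50 with a median of 9.00 in leukemic Pax5+/- arrays, against 10.49 to 10.88 with a median of 10.63 in preleukemic Pax5+/- arrays. In WT mice Rb1 was at 9.75, 9.29, 9.00 and 8.91 in leukemic arrays, against 10.66, 10.78 and 10.59 in preleukemic arrays. Like E2f2, Rb1 was lower in every leukemic array than in any preleukemic array of its genotype, 3.16-fold in Pax5+/- mice (log2 difference -1.66, SE 0.12, limma adjusted p = 2.25e-10) and 2.71-fold in WT mice (-1.44, SE 0.19, adjusted p = 5.06e-06).

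Tfdp1, a partner with which many E2F proteins bind DNA, rose 2.36-fold in Pax5+/- mice (adjusted p = 2.7e-07) and 2.50-fold in WT mice (adjusted p = 0.000102). Its relative Tfdp2 was among the genes that fell in both genotypes. Tfdp1 ran from 9.44 to 10.20 with a median of 9.81 in leukemic Pax5+/- arrays, against 8.24 to 8.73 with a median of 8.58 in preleukemic Pax5+/- arrays. In WT mice Tfdp1 was at 9.86, 9.92, 9.92 and 9.93 in leukemic arrays, against 9.51, 8.11 and 8.13 in preleukemic arrays, again without overlap. Ticrr, also called treslin, helps to bring Cdc45 to origins, and rose 2.55-fold (adjusted p = 2.85e-05) and 2.95-fold (adjusted p = 0.0014) in Pax5+/- and WT mice. Ticrr averaged 8.92 ± 0.37 (SD, n = 10) in leukemic and 7.57 ± 0.41 (SD, n = 7) in preleukemic Pax5+/- arrays, and 9.07 ± 0.12 (SD, n = 4) in leukemic and 7.51 ± 1.10 (SD, n = 3) in preleukemic WT arrays. Cdk1, the mitotic kinase, rose 2.89-fold (adjusted p = 1.33e-05) and 3.49-fold (adjusted p = 0.000675). It averaged 10.98 ± 0.35 (SD, n = 10) in leukemic and 9.44 ± 0.41 (SD, n = 7) in preleukemic Pax5+/- arrays, and 11.15 ± 0.20 (SD, n = 4) in leukemic and 9.34 ± 1.24 (SD, n = 3) in preleukemic WT arrays. E2f3, the remaining activator of the family, also rose (1.00, adjusted p = 1.03e-05, and 1.28, adjusted p = 0.000239). Of the activators, E2f3 thus rose, E2f2 fell and E2f1 did not pass in Pax5+/- mice. E2f3 and Tfdp1 each had a further probe set with a lower mean over all arrays (7.31 and 8.85), whose differences are not given here. Genes of mitosis, a later phase of the cycle, rose in 17 of 17 cases in Pax5+/- and in 16 of 17 in WT mice. The shares of all genes that rose were 27.8% and 18.7%.

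**Figure D4:**
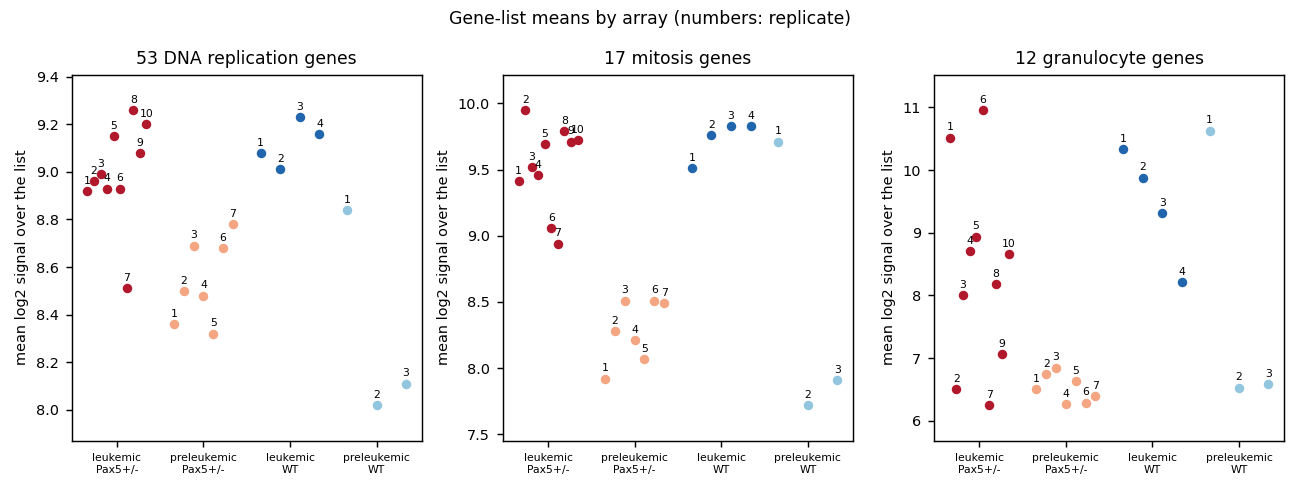
Mean log2 signal per array over the 53 DNA replication genes, 17 mitosis genes and 12 granulocyte genes, by group, with the replicate number at each point; the panels have separate scales. Leukemic Pax5+/- array 7 is lowest of its group for all 3 lists (8.51 for the replication genes), and preleukemic WT array 1 is highest of its group for all 3 (8.84 for the replication genes, against 8.02 and 8.11).

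Averaged over the 53 genes, the level was 8.99 ± 0.21 (SD, n = 10) in leukemic and 8.54 ± 0.18 (SD, n = 7) in preleukemic Pax5+/- arrays, and 9.12 ± 0.10 (SD, n = 4) in leukemic and 8.32 ± 0.45 (SD, n = 3) in preleukemic WT arrays. The arrays of a group tended to be high or low for most of the list at once. Leukemic Pax5+/- array 7 was lowest of its group for 40 of the 53 genes and below the group median for all 53, with a mean of 8.51, against 8.92 to 9.26 on the other 9 arrays. It lay above every preleukemic Pax5+/- array for 15 of the 37 genes that rose, whereas arrays 5, 8 and 9 did so for 37 of 37. Its granulocyte mean was the lowest of the group too, at 6.25, just below the preleukemic Pax5+/- range of 6.26 to 6.85. Leukemic Pax5+/- array 2, with a granulocyte mean of 6.50, had a replication mean of 8.96, and array 6, with the highest granulocyte mean of 10.96, had 8.93. These are 2 of the 10 arrays, and the relation of the replication and granulocyte means over the group was not tested. The part of the array's cell content in these levels was not tested. Without arrays 7 and 8, the lowest and the highest of that group, 38 genes rose and 3 fell in Pax5+/- mice, with a median of 0.50. Of all genes, 28% rose and 33.8% fell in that fit.

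Within groups the median SD over the list was above that over all genes tested, and genes of like signal level were not compared. The median SD of the list was 0.265 in leukemic Pax5+/- arrays, 0.238 in preleukemic Pax5+/- arrays, 0.18 in leukemic WT arrays and 0.468 in preleukemic WT arrays, beside 0.17, 0.123, 0.133 and 0.151 over all genes. The high value of the preleukemic WT group came with its array 1, which was the highest of the group for 49 of the 53 genes. On that array the mitosis mean was 9.71, against 7.72 and 7.91 on the others. The part of other cells on that array in these values was not tested.

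Whether the stage difference itself differed between genotypes was tested as an interaction, and with limma no gene of the list passed, beside 0.179% of all genes above 0 and 0.00639% below 0. At an unadjusted p under 0.05 the list had 0 above 0 and 13 below 0, beside 5.28% and 3.19% of all genes. The interaction is the stage difference in Pax5+/- minus that in WT mice, and its median was -0.39 over the list and 0.01 over all genes, with 46 of 53 values below 0. The smallest p-values of the list were those of Pcna (-0.47, limma adjusted p = 0.226) and E2f1 (-0.60, adjusted p = 0.411). Without preleukemic WT array 1 the interaction passed for Pcna (-0.64, SE 0.12, adjusted p = 0.0177) and Mcm5 (-0.91, SE 0.19, adjusted p = 0.0315), beside 0.0576% of all genes below 0, and the median was -0.60. The median was nearer 0 without another preleukemic WT array, at -0.22 without array 2, with 39 of 53 values below 0, and at -0.27 without array 3. Leaving out any other single array gave no call on the list.

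Between genotypes in preleukemic mice no gene of the list passed either, beside 0.262% of all genes higher and 0.524% lower in Pax5+/- mice by limma. At an unadjusted p under 0.05, 13 were higher and 0 lower in Pax5+/- mice, beside 3.8% and 5.42% of all genes. The median log2 difference, Pax5+/- minus WT, was 0.22 over the list and -0.01 over all genes, and 43 of the 53 values were above 0. Without preleukemic WT array 2 the median was 0.07, with 34 values above 0, and without array 3 it was 0.11. Pold1, with 1 of the smallest p-values, had 9.03 to 9.66 with a median of 9.43 in preleukemic Pax5+/- arrays, against 8.89, 8.77 and 8.91 in preleukemic WT arrays. It was the only gene of the list whose groups did not overlap (1.94% of all genes did so in that direction), at a difference of 0.49 (limma adjusted p = 0.0945). Pcna came next, at 12.24 to 12.57 in preleukemic Pax5+/- arrays, against 12.31, 11.86 and 11.76 in preleukemic WT arrays, a difference of 0.37 (adjusted p = 0.103). This comparison and the WT stage comparison share the preleukemic WT arrays, so their values are not independent.

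Without preleukemic WT array 1, 8 of the 53 genes were higher in preleukemic Pax5+/- than in preleukemic WT mice, beside 0.384% of all genes, and the median was 0.50. Only 2 WT arrays then remained, assumed to vary like the other groups. The 8 were 3 ring subunits of the helicase, Mcm2 (0.74, adjusted p = 0.0336), Mcm5 (0.80, adjusted p = 0.00746) and Mcm6 (0.80, adjusted p = 0.0468), with Gins1 (1.05, adjusted p = 0.0482), the polymerase subunits Pold3 (0.76, adjusted p = 0.0326) and Pole2 (0.95, adjusted p = 0.0222), and Pcna (0.53, adjusted p = 0.00605) and Rfc4 (1.03, adjusted p = 0.0354). For Mcm5 the preleukemic Pax5+/- arrays ran from 9.24 to 9.77 with a median of 9.55, against 8.65 and 8.75 in preleukemic WT arrays 2 and 3 and 9.69 in array 1. Array 1 thus lay inside the Pax5+/- range and the others below it. In WT mice the stage comparison without array 1 had 47 genes higher and 1 lower, beside 19.1% and 26% of all genes, with a median of 1.13, and Ccne2, Pcna and E2f8 joined those that rose. Which of the 3 WT arrays shows the usual state of such cells cannot be told from these data.

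**Figure D5:**
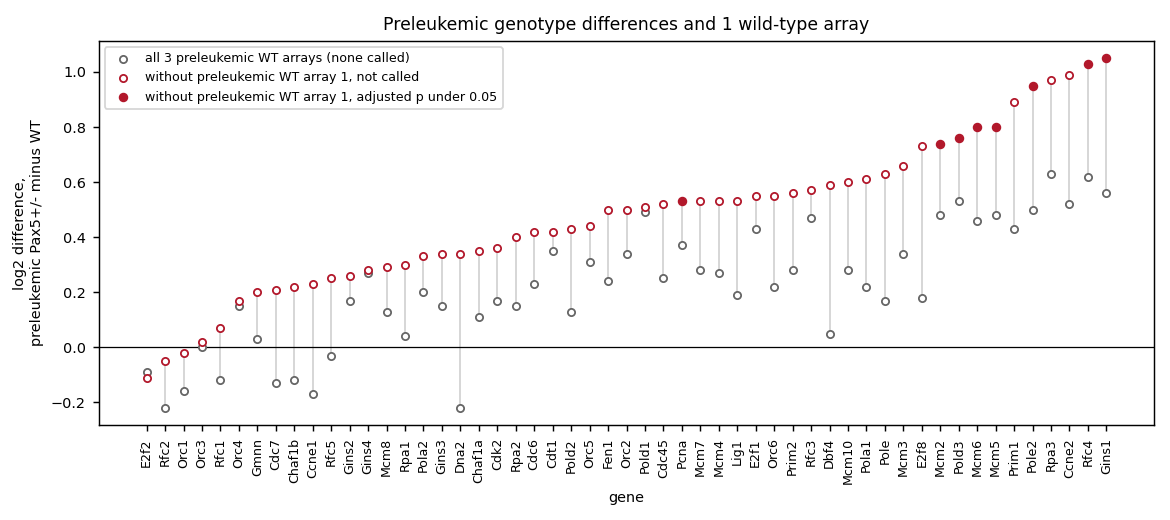
Log2 difference of each gene between preleukemic Pax5+/- (n = 7) and preleukemic WT mice, with all 3 WT arrays (grey) and without WT array 1 (red, filled where limma's adjusted p was under 0.05), ordered by the second value. None passed with all arrays, 8 passed without array 1, and Gins1 and Rfc4 have the highest values, 1.05 and 1.03.

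Between genotypes in leukemic mice no gene of the list passed with limma, beside 0.0511% of all genes higher and 0.109% lower in Pax5+/- mice. At an unadjusted p under 0.05, 1 was higher and 3 were lower, beside 3.95% and 3.65% of all genes. The median difference was -0.13, against 0.00 over all genes, with 9 of the 53 values above 0. Leaving out 1 array, the median ran from -0.18, without leukemic Pax5+/- array 8, to -0.08, without leukemic Pax5+/- array 7 or leukemic WT array 3. E2f2 had the smallest p-value, at 6.99 to 8.04 with a median of 7.68 in leukemic Pax5+/- arrays, against 8.46, 8.44, 7.90 and 8.02 in leukemic WT arrays. These ranges overlapped, and the difference was -0.53 (limma adjusted p = 0.241). Ccne1 ran from 7.84 to 9.07 with a median of 8.71 in leukemic Pax5+/- arrays, against 9.25, 9.28, 9.22 and 9.59 in leukemic WT arrays. Its groups did not overlap (0.198% of all genes did so in that direction), but the difference of -0.63 did not pass (adjusted p = 0.307). In this comparison 3 of 6 erythroid markers were lower in leukemic Pax5+/- arrays, and no marker of the other cell types was called.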

How the data were processed

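Total RNA of 24 mice was hybridised to 1-colour arrays after biotin labelling, per the labels' protocols. Per the submitters' processing notes, the authors used RMA and oligo. The table they deposited holds log2 signals for 35556 probe sets. Their software versions and any filters were not given in the sources used here. RMA subtracts background, equalises array distributions and summarises probes, which compresses differences near background. The 53 genes, the other lists and the tests were chosen with earlier results of these data known. Probe sets with 1 symbol in the platform table named 19938 genes, and the highest mean decided between several. A gene was tested (15647 were, 4291 were set aside) if it exceeded the 30th percentile of its array (5.18 to 5.35) on at least 3 arrays. A linear model with 1 mean per group was fitted over the 24 arrays in limma 3.58.1 under R 4.3.3, with eBayes moderation (residual degrees of freedom 20, prior 2.29), and it was tested on simulated data. Two-sided p-values were adjusted by Benjamini-Hochberg across all tested genes, and a gene was called, and said to rise or fall, at an adjusted p under 0.05. The number of arrays limits the precision.

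Values per array were given for Pcna, for the 4 largest rises and 3 largest falls among called genes of each stage comparison, for the 2 smallest p-values where a comparison had no call, and for the smallest p of each role in Pax5+/- mice. Of the replication genes outside the list, those with the largest called differences were named by rule (Rb1, Cdk1, Ticrr and Tfdp1), and Mcm9, Pole3, Pole4, Pold4 and E2f3 were added after their values were seen, as relatives of listed genes. Mcm5 and Mcm6 means were also shown by choice. Alternatives changed the variance model, the arrays fitted, the weights, the dim filter (none, or the 50th percentile), the scaling, the probe set, the Y-linked class (mean of Eif2s3y, Kdm5d and Uty above or below 7) as a covariate and a replicate block, and left out each array in turn. Centring on the median of the tested genes, and leaving out leukemic Pax5+/- arrays 7 and 8, were chosen after seeing the data. No genome was used. Promoter windows came from a RefSeq table of GRCm38.p6, and the windows of a chromosome of that table were not counted.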

Additional observations from a re-analysis of the deposited data

Results flagged for a closer look

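Within groups of 4 to 10 arrays, 18 of 162 sets of values had a highest or lowest array that lay far from the nearest of the others for the width of its group, a criterion that chance meets in about 1 in 20 independent sets. The sets share arrays and are not independent, so the count of 18 cannot be set against that rate. Of the 18, 9 were low values on leukemic Pax5+/- array 7. The mean over the 53 genes was 8.51 there, against 8.92 to 9.26 on the other arrays of the group. The cyclins Ccne1 and Ccne2 were at 7.84 (others 8.62 to 9.07) and 7.46 (others 8.26 to 8.81), and their kinase Cdk2 at 9.63 (others 9.85 to 10.07). Cdc45 was at 8.16 (others 8.62 to 9.09), Lig1 at 8.68 (others 9.14 to 9.55), Rfc3 at 7.87 (others 8.93 to 9.32), Rfc5 at 9.55 (others 10.03 to 10.45) and E2f8 at 7.95 (others 8.92 to 9.98). In preleukemic Pax5+/- mice, Pold3 was at 9.32 on array 1 (others 9.72 to 10.02) and Rfc2 at 7.93 on array 5 (others 8.41 to 8.74).

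Among the 4 leukemic WT arrays, Ccne1 was at 9.59 on array 4 (others 9.22 to 9.28), and Orc2 and Rfc2 were at 8.97 (others 8.43 to 8.51) and 9.50 (others 8.99 to 9.06) on array 3. On array 1, E2f1 was at 8.76 (others 8.47 to 8.51) and Rpa1 at 9.12 (others 9.30 to 9.31). On array 2, Chaf1b was at 8.38 (others 8.89 to 8.99) and Rpa2 at 9.54 (others 9.79 to 9.84). Preleukemic WT arrays, 3 in number, were too few for this criterion.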

How the results depend on the processing

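With 3 preleukemic WT arrays, the WT stage and preleukemic genotype comparisons rest on few mice. No gene called in a stage comparison reversed its direction under the alternatives run. Stage differences that had not passed did change sign, for 8 genes in Pax5+/- mice (Ccne2, Cdc6, E2f1, Gins4, Gmnn, Orc3, Orc5 and Rpa3, of which 6 did so with arrays centred on the tested genes) and for Orc5 in WT mice, with none passing on the other side. Of the genes called in Pax5+/- mice, 28 of 37 that rose and 2 of 3 that fell kept their call under all 36 alternatives, and in WT mice 31 of 44 and 1 of 1 did. The Y-linked class as a covariate was among these alternatives. Its effect was estimated from Pax5+/- arrays, because in WT mice the class went with stage, so it cannot separate the 2 there. Leaving out each array in turn gave 35 to 39 higher and 3 lower genes in Pax5+/- mice, and 33 to 47 higher and 1 to 2 lower in WT mice, where the median ran from 0.65 to 1.13. In preleukemic mice it gave 0 to 8 genes higher in Pax5+/- mice (1, Pold1 at an adjusted p of 0.0445, without leukemic Pax5+/- array 1) and a median of 0.07 to 0.50, and in the interaction 0 to 2 genes lower and a median of -0.60 to -0.22. In leukemic mice the genotype median ran from -0.18 to -0.08. The counts of 8 and 2, and the medians of 1.13, 0.50 and -0.60, came without preleukemic WT array 1. Centring on the tested genes gave 6 lower genes in Pax5+/- mice (Pold1, Rfc3 and E2f1 in addition), 2 in WT mice and 1 gene higher in preleukemic Pax5+/- mice (Pcna, 0.44, adjusted p = 0.0302). Repeating quantile normalization gave 2 lower genes in WT mice. The cause was not tested. With group means taken out, same-numbered arrays of different groups correlated over 0.1 in 4 of 24 pairs (-0.363 to 0.318). Arrays with different numbers were not compared, so this check cannot exclude a pairing by replicate number. With the replicate block, 29 genes rose and 3 fell in Pax5+/- mice and 43 and 1 in WT mice, with medians of 0.45 and 0.83, and the other comparisons had 0 calls. Of all genes, 25.6% rose and 30.2% fell in Pax5+/- mice under the block, and 17% and 17.5% in WT mice. The block ended the Pax5+/- call of Cdt1 (0.29, adjusted p = 0.0616). With all genes, fits of only the groups compared called 77 higher and 172 lower genes in the preleukemic genotype comparison, against 41 and 82, and 1 and 0 in the leukemic one, against 8 and 17.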
